A study of Homo sapiens with 20 samples.

Results

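Neuroendocrine (NE) marker genes are used to ask whether a prostate cancer cell has taken on features of a hormone-secreting neural-like cell. The 8 markers described here were taken by symbol from the 57773 genes of the deposited count tables: ENO2, SYP, DLL3, NANS, CHGA, CHGB, NCAM1 and INSM1. All 8 were found in both tables, and they are given in all 10 conditions of the study. RNA-seq was performed on LNCaP, a human prostate adenocarcinoma cell line. In a first experiment, LNCaP cells received 20 nmol/L of a pool of siRNAs against EHMT1 (siEHMT1) or of a nontarget pool (siNTC) for 2 days, with 2 samples per group. In a second experiment, 4 LNCaP lines carried a stably integrated, tetracycline-inducible EHMT1 transgene with a V5 tag, coding for the wild-type protein (WT) or for a protein in which the first, the second or both of 2 neighbouring lysines are changed to arginine (K450R, K451R and K450RK451R). Each line was left uninduced (Veh, also labelled untreated) or received 0.25 µg/mL of doxycycline (Dox) for 2 days, with 2 columns per condition. All cells of both experiments kept their own EHMT1 gene, so the transgene adds to it. Whether a line is 1 clone or a pool is not given in the sources used here, and Dox was not given to cells without the transgene.

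NE cells are a rare hormone-secreting cell type of the prostate, and NE prostate cancer is an aggressive form that loses luminal features. Its cells hold dense-core granules filled with chromogranins, synapse-type vesicles and neuronal adhesion molecules, under transcription factors such as INSM1. Outside the nervous system, many of these genes are held silent by REST, a repressor that recruits histone deacetylases, the demethylase LSD1 and the H3K9 methyltransferases EHMT1 and EHMT2. ENO2 (neuron-specific enolase) differs from the others in that it codes for a glycolytic enzyme.

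Sequencing depth ranged from 5593400 to 12438006 counts in the siRNA samples and from 4168199 to 6272708 in single columns of the stable lines. The 2 columns of each stable-line condition differed by no more than the sampling noise (chi-square per degree of freedom 0.995 to 1.02), so they were added together and counted as 1 sample, giving 8436791 to 12407739 counts per condition. The siRNA duplicates did differ beyond it (61.6 for siNTC and 13.4 for siEHMT1), mostly through 2 pseudogenes that resemble ribosomal RNA, without which the values were 6.58 and 6.17. Levels are CPM, counts relative to library size, scaled jointly over the resulting 12 libraries, and 3 counts or fewer are taken as the floor. That floor is 0.241 to 0.536 CPM of the total in the siRNA samples and 0.242 to 0.356 CPM in the stable-line conditions. The targeted gene behaved as labelled. EHMT1 (also called GLP) stood at 83.5 and 78.9 CPM with siNTC and at 27.8 and 29.1 CPM with siEHMT1, and in the lines it went from 73.3 to 90.9 CPM with Veh to 675 to 858 CPM with Dox. Transgene and endogenous reads are not separated in these counts.

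The tables of RefSeq promoters (GRCh38.p14, 250 bases before to 50 after each start) held 4 of the 8 genes, namely ENO2, SYP, NANS and CHGA. DLL3, CHGB, NCAM1 and INSM1 were not matched. A window of 30 bases is shown for the gene with the highest level in the stable lines and for one with no count in any library, since they mark the ends of the panel. In the ENO2 window the capitals mark ACGTG, the core of the hypoxia response element, whose first base lies 118 bases before the start. In the CHGA window they mark TGACGTCA, the full cyclic AMP response element, which begins 54 bases before the start.
ENO2 (chr12:6914450-6914479, + strand): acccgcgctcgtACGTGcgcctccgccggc
CHGA (chr14:92923085-92923114, + strand): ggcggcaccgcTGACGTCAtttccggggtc
ACGTG, read on both strands, was present in 21.4% of the 35116 promoters of this length, and SYP and NANS had 1 match each as well. TGACGTCA was present in 1.85% of them and, of the 4 genes, in CHGA alone. The left and right parts of the REST site, searched as TTCAGCACC and GGACAGCG, are in 0.376% and 1.63% of promoters and in none of the 4 windows searched. These are letter matches, and binding was not measured here.

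Of the 8 markers, 3 were measured well in every library, 2 lay at the limit of detection and 3 gave no read. CHGA and CHGB, the chromogranins that fill the secretory granule, and INSM1, a zinc finger factor of NE differentiation, had 0 counts in all 4 siRNA samples and all 8 stable-line conditions. The floor of 3 counts that a count of 0 allows is 0.536 CPM of the total in the shallowest siRNA sample and 0.356 CPM in the shallowest condition. On the jointly scaled CPM the upper ends of the 95% Poisson interval for 0 counts are 0.688 and 0.467 CPM there, and both limits cover counting error only. NCAM1, the neural cell adhesion molecule known as CD56, had 0 and 1 counts in the siNTC samples, against 1 and 0 after siEHMT1. Among the lines NCAM1 gave no count in WT. K450R had 2 counts with Veh and 1 with Dox, K451R had 5 with Veh and 3 with Dox, and K450RK451R had 2 with Veh and 4 with Dox. It rose above the floor in 2 of the 12 libraries, K451R with Veh and K450RK451R with Dox, and no difference between conditions was detectable at this depth. NANS, ENO2 and DLL3 exceeded 10 counts in all 12 libraries, as the plot of counts by gene shows.

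**Figure D1:**
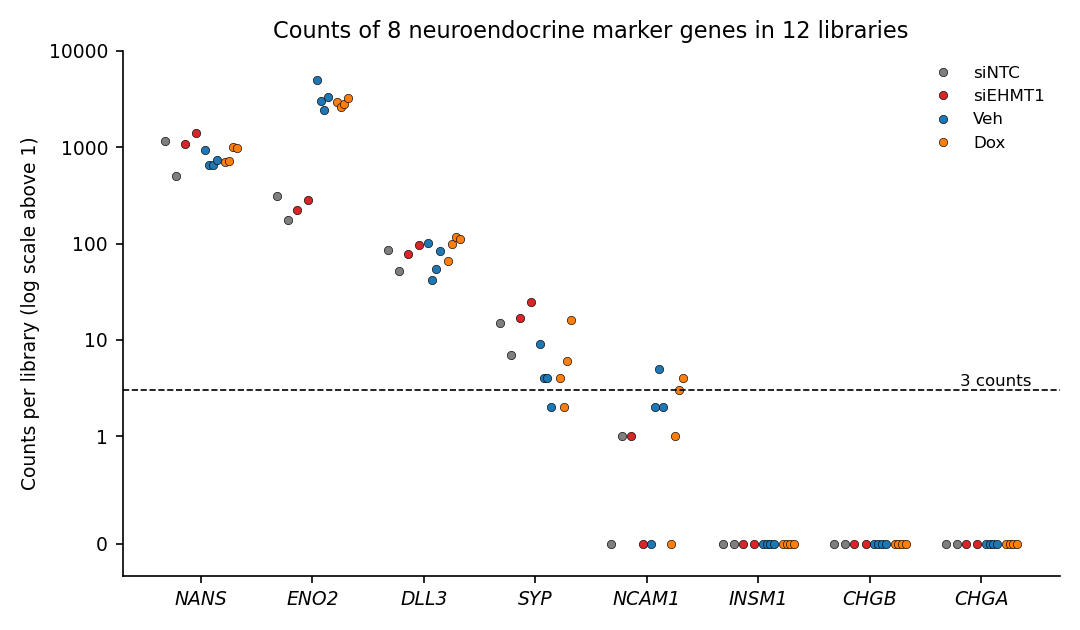
Counts of each marker gene (x axis) in the 4 siRNA samples and the 8 stable-line conditions (y axis, log scale above 1 count), with 1 point per library. INSM1, CHGB and CHGA lie at 0 in every library, NCAM1 between 0 and 5, and ENO2 is the gene whose siRNA samples (176 to 311 counts) and stable lines (2439 to 4942 counts) lie farthest apart.

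Compared per kilobase of exon, the order of the measured genes differed between the experiments. In the siRNA samples NANS was highest at 19.1 to 21.7 CPM per kb, ENO2 followed at 4.95 to 7.67, DLL3 at 2.78 to 3.71 and SYP at 0.187 to 0.271, with no overlap between neighbours. In the stable lines ENO2 was highest at 54.3 to 100.04 CPM per kb, NANS followed at 15.6 to 17.1, DLL3 at 2.03 to 4.11 and SYP at 0.0297 to 0.181. The exchange of places came from ENO2, whose level alone moved by more than 2-fold among these 3 well-measured genes.

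ENO2 lies on chromosome 12 (hg19, 7022909-7032861, + strand) and codes for the gamma subunit of enolase, the form found in neurons and NE cells. Its level was 27.9 and 32.8 CPM with siNTC, against 22.0 and 21.2 CPM with siEHMT1. The groups did not overlap, with siEHMT1 lower, an arrangement that 19.4% of all tested genes share. The fitted log2 difference was -0.48 (SE 0.14, 95% interval -0.77 to -0.18), with an unadjusted p of 0.00297 and an adjusted p of 0.241 (edgeR's quasi-likelihood test, Benjamini-Hochberg adjusted over 14532 genes). ENO2 therefore did not pass the threshold of 0.05 in the siRNA comparison, in which 0.124% of the genes tested did (18 genes) and 9.14% had an unadjusted p under 0.05. No marker was called among the 4 that could be tested, at this threshold or at 2-fold with an unadjusted p under 0.05, which 1.29% of genes passed. The gene targeted, EHMT1, fell by 1.52 on the log2 scale (SE 0.11, adjusted p = 2.34e-07, edgeR's quasi-likelihood test).

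In the stable lines ENO2 fell with Dox. Its level was 428 CPM with Veh and 339 CPM with Dox in WT. In K450R the values were 383 and 286 CPM, in K451R 303 and 233 CPM, and in K450RK451R 346 and 256 CPM. Dox was below Veh in each of the 4 lines, while the Veh and Dox values of different lines overlapped (303 to 428 against 233 to 339 CPM). With the 4 lines as replicates of a shared effect, the log2 difference was -0.39 (SE 0.054, 95% interval -0.50 to -0.28), or 0.764-fold, with an adjusted p of 7.87e-05 by edgeR's quasi-likelihood test. It ranked 19 by p among 14105 genes tested, of which 2.03% were called (286 genes), 1.47% as lower with Dox and 0.553% as higher. A decrease in all 4 lines occurred in 10.6% of the genes tested. At the cutoff of 2-fold with an unadjusted p under 0.05, which 0.376% of the genes passed, ENO2 was not called, since its change was smaller than 2-fold. Without a line that lacks the transgene, an effect of Dox itself and one of EHMT1 cannot be told apart.

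Taken line by line, the log2 ratio of Dox over Veh for ENO2 was -0.34 in WT (95% counting interval -0.40 to -0.27) and -0.42 in K450R (-0.50 to -0.35). In K451R it was -0.38 (-0.46 to -0.30), and in K450RK451R -0.44 (-0.51 to -0.37). Each interval overlapped the other 3, and a difference between lines in this response was not tested, because each condition holds 1 sample. EHMT1 itself went up with Dox by 3.38, 3.31, 3.34 and 2.89 on the log2 scale in the same order of lines.

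**Figure D2:**
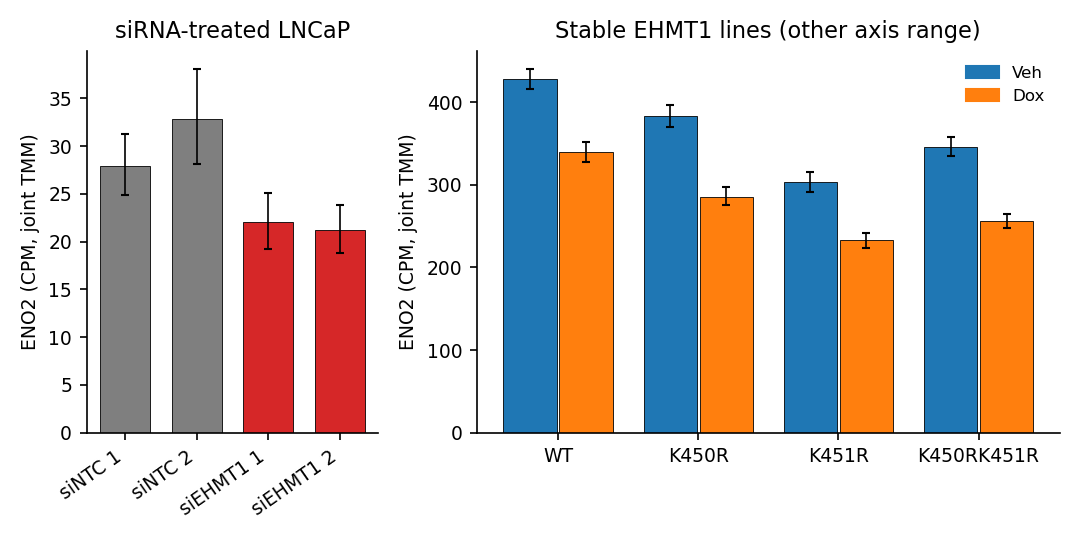
ENO2 level in CPM (y axis, bars from 0, a separate range in each panel) in the 4 siRNA samples and in the 4 stable lines with Veh and Dox, with 95% Poisson intervals for counting error. The siEHMT1 bars (22.0 and 21.2) stand below the siNTC bars (27.9 and 32.8), and each Dox bar stands below its line's Veh bar.

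ENO2 also differed among the lines themselves. The mean of Veh and Dox was 384 CPM in WT, 335 in K450R, 301 in K450RK451R and 268 in K451R, a fitted range of 0.52 on the log2 scale or 1.43-fold. The F test on the line terms gave an adjusted p of 4.94e-04 (edgeR's quasi-likelihood test, 3.02% of genes called). Veh and Dox of a line served as its 2 samples in that test. It therefore does not measure how a line varies between separate cultures. Without WT the range was 0.32 (adjusted p = 0.0319, the same test). Over the 8 conditions the order ran from WT with Veh (428 CPM) through K450R, K450RK451R with Veh, WT with Dox, K451R with Veh, K450R with Dox and K450RK451R with Dox to K451R with Dox (233 CPM). The counting intervals overlapped between 2 neighbouring pairs, K450RK451R Veh with WT Dox and K451R Veh with K450R Dox, and were apart between the other 5. Counting error is the only error in these intervals, since no condition has a second independent sample.

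The largest contrast in ENO2 was between the experiments. The uninduced lines averaged 365 CPM ± 53.2 (SD, n = 4) and the siNTC samples 30.4 CPM ± 3.47 (SD, n = 2), a ratio of 12.02 with no overlap. Among 14017 genes with a mean of at least 10 counts, 64 (0.457%) had a larger ratio and 12.7% were at least 2-fold higher in the lines. The summed level of 12 genes of lower glycolysis and glucose entry was higher as well, 35015 to 44700 CPM in the lines against 8012 to 8624 CPM in the siRNA samples. The luminal markers summed to 12741 to 14019 against 7245 to 7538 CPM, and the basal or mesenchymal markers, almost all of it FN1, to 1666 to 3149 against 488 to 796 CPM. The experiments differ in transgene, selection and library set, which cannot be told apart, and no test was made between the tables.

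Since ENO2 is a glycolytic enzyme, it was set beside its pathway: the enolases ENO1 and ENO3, the enzymes GAPDH, PGK1, PGAM1, PKM, LDHA, TPI1, ALDOA and HK2, and the glucose transporter SLC2A1. With Dox, 3 of these 12 genes fell, ENO2 among them, and none rose, where 1.47% of all genes tested were called lower. The other two were SLC2A1 (GLUT1), with a log2 difference of -0.38 (SE 0.078, adjusted p = 0.0068, edgeR's quasi-likelihood test), and HK2, which traps glucose in the cell as its phosphate, with -0.32 (SE 0.063, adjusted p = 0.0043, edgeR's quasi-likelihood test). Estimates were negative for 11 of the 12 genes, with a median of -0.10, where the median of all genes was 0.0049. The WT line differed from this: only ENO2, ENO3 and HK2 were lower with Dox there (-0.34, -0.26 and -0.07). The other genes of the list were higher with Dox in WT, from 0.05 for LDHA to 0.15 for ALDOA. SLC2A1 was higher with Dox in WT (0.10) and lower in K450R, K451R and K450RK451R (-0.48, -0.51 and -0.66), and HK2 was lower in all 4 lines (-0.07 in WT, -0.32, -0.41 and -0.48 in the others, in the same order). The call of SLC2A1 was lost without K450R or without K450RK451R (adjusted p = 0.122 and 0.0747) and under DESeq2 (0.353), and that of HK2 without K450R or without K451R (0.050003 and 0.0516), all with Benjamini-Hochberg adjustment. ENO1, the widely expressed enolase, was far more abundant than ENO2 per kilobase (a mean of 1521 against 75.2 CPM per kb in the lines) and had a log2 difference of -0.04 (adjusted p = 0.790, edgeR's quasi-likelihood test). In the siRNA comparison none of the 12 was called, and the median was -0.07. Among the lines 4 of the 12 differed (3.02% of all genes), ENO2, SLC2A1, ALDOA and GAPDH. Without WT the range of SLC2A1 was 0.37 in place of 0.75 on the log2 scale, still called. The call of SLC2A1 was lost under DESeq2, that of ALDOA under DESeq2, without K450R and without K451R, and that of GAPDH under upper-quartile scaling and without K450R, K451R or K450RK451R.

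**Figure D3:**
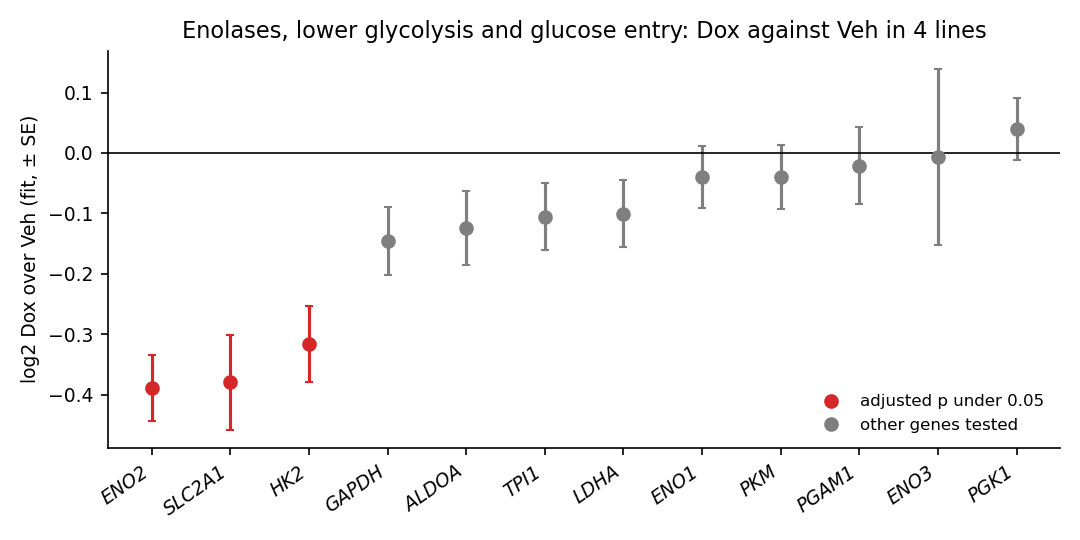
Fitted log2 Dox over Veh across the 4 lines (y axis, ± SE) for 12 genes of lower glycolysis and glucose entry (x axis, sorted by value), with genes at an adjusted p under 0.05 in red. ENO2, SLC2A1 and HK2 lie between -0.39 and -0.32, and the other 9 genes lie between -0.15 and 0.04.

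By likeness over the 8 stable-line conditions, the genes nearest to ENO2 among 9149 with a mean of at least 10 CPM were ACOX3 (Pearson's r 0.976), SCARB1 (0.974), GGT7 (0.974), CHD3 (0.973) and GTPBP1 (0.972). Their values, like those of ENO2, come from the same 8 libraries, and 142 genes had an r over 0.9. SCARB1, a lipoprotein receptor, ranged from 198 to 278 CPM, and ACOX3, a peroxisomal oxidase, from 21.5 to 28.2 CPM. These correlations are descriptions over 8 points.

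SYP, on chromosome X (hg19, 49044268-49056677, - strand), codes for synaptophysin, the membrane protein of synaptic vesicles that pathologists stain to recognise NE tumours. It gave 15 and 7 counts in the siNTC samples, or 1.35 and 1.31 CPM. After siEHMT1 it gave 17 and 25 counts, or 1.69 and 1.89 CPM. The groups did not overlap, with siEHMT1 higher, as for 20.1% of the genes tested. The log2 difference was 0.43 (SE 0.45, 95% interval -0.52 to 1.37, adjusted p = 0.827, edgeR's quasi-likelihood test), an interval that includes 0 as well as a 2-fold rise. Among the lines, WT gave 9 counts with Veh and 4 with Dox, K450R gave 4 and 2, K451R gave 4 and 6, and K450RK451R gave 2 and 16. The counts lay between 2 and 9 apart from the 16 with Dox in K450RK451R. In K450RK451R the ratio of Dox over Veh was 6.09, or 2.61 on the log2 scale with a 95% counting interval of 0.52 to 5.77, and it rests on the 2 counts with Veh. The interval included 0 in the other 3 lines, and each of these overlapped that of K450RK451R. SYP did not pass the filter on low counts in the stable lines and was not tested there.

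DLL3, on chromosome 19 (hg19, 39989535-39999121, + strand), codes for an inhibitory Notch ligand that is present on NE tumour cells and serves as a drug target. It stood at 7.64 and 9.70 CPM with siNTC and at 7.74 and 7.27 CPM with siEHMT1, where the groups overlapped. The log2 difference was -0.18 (SE 0.22, 95% interval -0.64 to 0.28, adjusted p = 0.857, edgeR's quasi-likelihood test). Among the lines, WT stood at 8.84 CPM with Veh and 7.62 CPM with Dox, K450R at 5.32 and 10.8 CPM, K451R at 6.71 and 9.82 CPM, and K450RK451R at 8.72 and 8.76 CPM. DLL3 was thus lower with Dox in WT, higher in K450R and K451R, and level in K450RK451R. The log2 ratio was 1.02 in K450R (95% counting interval 0.48 to 1.57) and 0.55 in K451R (0.07 to 1.04), both above 0, whereas the intervals of WT (-0.68 to 0.25) and K450RK451R (-0.41 to 0.43) included 0. The DLL3 difference over the 4 lines was 0.32 (SE 0.19, 95% interval -0.07 to 0.70) and did not pass the test (adjusted p = 0.480, edgeR's quasi-likelihood test). It was 0.11 without K450R and 0.50 without WT, and passed the test in neither case. Among the lines the fitted range of DLL3 was 0.13 on the log2 scale (adjusted p = 0.988, the same test). The lowest and highest of all 8 conditions were the Veh and Dox samples of one line, K450R, and neighbours in the order overlapped in their counting intervals throughout.

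**Figure D4:**
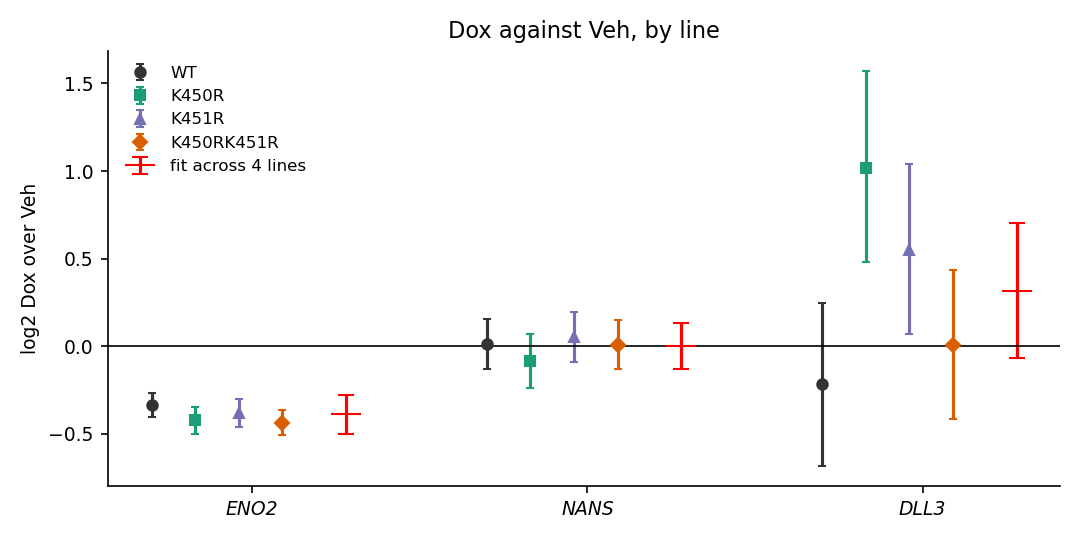
Log2 ratio of Dox over Veh (y axis) for ENO2, NANS and DLL3, with 1 symbol per line and its 95% counting interval, and in red the fit across the 4 lines with its 95% interval. The 4 ENO2 values (-0.44 to -0.34) lie together below 0, those of NANS (-0.08 to 0.05) lie around 0, and those of DLL3 spread from -0.21 to 1.02.

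The rest of the Notch pathway was present. Of its 18 genes, 15 passed the filter in each experiment. NOTCH2, a receptor, rose with Dox (log2 difference 0.29, SE 0.071, adjusted p = 0.0233, edgeR's quasi-likelihood test) and was higher in 4 of 4 lines. Its call was lost without K450R, without K451R and without K450RK451R (adjusted p = 0.0832, 0.286 and 0.0778) and under DESeq2 (0.0912). HES6, an antagonist of HES1, differed among the lines, with a range of 0.75 on the log2 scale (adjusted p = 1.44e-06, edgeR's quasi-likelihood test), and without WT the range was 0.14 and the call was lost (adjusted p = 0.651, the same test). The median log2 difference of the 15 genes was -0.04 with Dox and -0.06 with siEHMT1, where no gene of the list was called. HES6, NOTCH3 and RBPJ had the highest levels in the uninduced lines, at 188, 129 and 105 CPM.

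NANS, on chromosome 9 (hg19, 100819014-100845359, + strand), codes for the synthase that makes sialic acid phosphate, the precursor of the polysialic acid carried by NCAM1. It was 105 and 94.1 CPM with siNTC and 107 and 105 CPM with siEHMT1. The log2 difference of 0.09 (SE 0.094, 95% interval -0.11 to 0.28) did not pass the test (adjusted p = 0.836, edgeR's quasi-likelihood test). In the lines NANS was the steadiest of the measured markers, with 76.7 CPM at the lowest, 80.5 at the median and 84.3 at the highest of the 8 conditions, or 1.10-fold from end to end, where ENO2 spanned 1.84-fold and DLL3 2.02-fold. DLL3 had 42 to 118 counts per condition against 654 to 1013 for NANS, so counting error widens the DLL3 span more. The log2 difference of NANS with Dox was 0.0031 (SE 0.064, 95% interval -0.13 to 0.13, adjusted p = 0.990, edgeR's quasi-likelihood test). The counting intervals of all its neighbouring conditions in the order of 8 overlapped. The range among lines was 0.11 on the log2 scale (adjusted p = 0.883, the same test). The siNTC samples were 1.24-fold above the mean of the uninduced lines, without overlap, and no test was made between the tables. The nearest genes in pattern were STRN3 (Pearson's r 0.947 over 8 conditions), CBR4 (0.946), RNF8 (0.937), ANXA4 (0.902) and SLC6A11 (0.892), of which none was called with Dox. TRIM14 overlaps NANS on the opposite strand and LRRC23 overlaps ENO2 on the same strand, and whether the counting used strand is not given in the sources used here.

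The other sialic acid genes did not pass the test either. None of the 10 tested with siEHMT1 or of the 11 tested with Dox was called, and the medians were 0.0041 and 0.05 on the log2 scale. ST3GAL1, which adds sialic acid to O-linked glycans, was the highest at 692 CPM in the uninduced lines. GNE, the enzyme that opens sialic acid synthesis, gave 1 count in all siRNA samples and 11 in all stable-line conditions. The polysialyltransferases ST8SIA2 and ST8SIA4, which act on NCAM1, stood at 1.17 and 2.16 CPM with Veh.

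Other genes of the NE programme were read in the same way. Of 10 granule and secretory genes, 2 were above the floor in every library of each experiment, namely CPE, a carboxypeptidase that trims prohormones (64.9 CPM with siNTC, 81.8 with Veh), and PCSK1N, an inhibitor of prohormone convertase (11.2 and 17.0 CPM). CHGA, CHGB and PCSK2 had no count anywhere. Of 10 synaptic vesicle and exocytosis genes, SYT4, a synaptotagmin, led with 384 CPM with siNTC and 588 CPM with Veh, followed by RAB3A at 30.7 and 52.3 CPM. SYT4 differed among the lines by up to 0.60 on the log2 scale, and by 0.38 without WT, a call that held in all 11 alternatives (adjusted p up to 6.77e-04, edgeR's quasi-likelihood test or the alternative tool), and its log2 difference with Dox was 0.10 (adjusted p = 0.460, edgeR's quasi-likelihood test). Of 10 neuronal cytoskeleton and adhesion genes, L1CAM was the highest with Veh at 4.59 CPM. Of 12 NE transcription and splicing factors, 4 had no count in any library (INSM1, NEUROD1, MYCN and NKX2-1). ONECUT2 (18.2 CPM with siNTC, 9.18 with Veh) and SOX11 (1.65 and 1.47 CPM) were the 2 factors above the floor in every library. Over these 4 lists, none of the 12 tests with siEHMT1 and none of the 10 with Dox gave a call, and few genes could be tested.

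REST and 13 genes of its corepressor complexes were all measured. With EHMT1 set aside, which was the target, none of the other 13 was called in any of the 3 comparisons. Against the NE genes stand the luminal adenocarcinoma markers, all 14 of which were above the floor in every library, led by KLK3 (PSA) at 2878 CPM with siNTC and 7962 CPM with Veh. With Dox 5 of the 14 rose, against 0.553% of all genes. Among them were FOXA1 (log2 difference 0.36, adjusted p = 5.25e-04), TMPRSS2 (0.22, adjusted p = 0.0257) and SLC45A3 (0.23, adjusted p = 0.0415), all by edgeR's quasi-likelihood test. FOXA1, a pioneer transcription factor, was called under all 11 alternatives. The calls of the other 4 were each lost without K450R, without K451R and without K450RK451R, and that of SLC45A3 under DESeq2 as well (adjusted p = 0.0678). The median of the 14 was 0.16, and their summed level was 12741 to 13517 CPM with Veh and 13266 to 14019 CPM with Dox. Their part in the ENO2 result was not tested. None of the 14 was called with siEHMT1. Of 8 basal or mesenchymal markers, 2 were above the floor throughout, FN1 (730 CPM with siNTC, 2485 with Veh) and VIM (11.7 and 68.5 CPM), and neither was called with Dox or siEHMT1. Among the lines 5 of the 14 luminal markers differed (3.02% of all genes), among them FOXA1, KRT8, SLC45A3 and FKBP5, as did FN1, whose call held in all 11 alternatives, with a range of 0.65 on the log2 scale and 0.35 without K451R. The calls of FOXA1, KRT8 and FKBP5 were lost without WT, and those of KRT8 and SLC45A3 without K450R and without K451R. They were also lost under DESeq2 for SLC45A3 and FKBP5, under upper-quartile scaling for KRT8, and with a filter of 1 CPM in 2 samples for KRT8 and SLC45A3.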

How the data were processed

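The authors mapped single-end reads of stranded total RNA libraries to hg19. The submitters' processing notes name FastQC 0.11.9, STAR 2.7.2 and featureCounts 1.6.4, and the authors deposited 2 tables of raw counts, whole numbers of reads per Ensembl gene, without normalization. Nothing says that duplicates came from separate cultures, so p-values measure only the spread between samples.

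The 8 markers and 10 gene lists (120 genes, written by hand) were chosen with earlier results of these data known. Markers are all named, and list genes are named where called or among the highest, except some that are not reported here. Stable-line columns 1 and 2 were summed once a chi-square (genes with 20 counts or more) had shown counting noise alone. Counts were fitted in R 4.3.3 with edgeR 4.0.16 (TMM, filterByExpr, quasi-likelihood, Benjamini-Hochberg over all genes tested, threshold 0.05): siEHMT1 against siNTC in 4 samples, and Dox against Veh with line as a block in 8 conditions, which also gave the F test among lines. A sample left out leaves 1 in its arm, assumed to vary like the rest. Where each condition had 1 sample, Poisson or conditional binomial 95% intervals cover counting error only. Likeness used log2 CPM with a prior count of 2. Gene positions are from GENCODE release 44 on GRCh37. Alternatives were DESeq2 1.42.0, limma-voom (3.58.1), RLE or upper-quartile scaling, 2 other filters, a replicate block, leaving out each sample or line, the 2-fold cutoff and a floor of 10 counts. Fits were tested on simulated data.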

Additional observations from a re-analysis of the deposited data

Results flagged for a closer look

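The Dox response of DLL3 drew attention because its sign in WT was opposite to that in the 3 mutant lines. The log2 ratio of Dox over Veh was -0.21 in WT and 1.02, 0.55 and 0.0075 in K450R, K451R and K450RK451R. The difference was not tested, since each condition holds 1 sample, and the counting intervals of WT and K450RK451R both include 0. No value lay far from the rest in the 9 sets of 4 lines examined for ENO2, NANS and DLL3.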

How the results depend on the processing

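The calls of the markers held in all alternatives but one: at 2-fold with an unadjusted p under 0.05, 0 markers were called with Dox in place of 1, because ENO2 changed by less than 2-fold. The ENO2 decrease with Dox was otherwise called in all 11 fits (log2 -0.41 to -0.37, adjusted p 9.1e-11 to 0.00367), as was its range among lines (0.32 to 0.52, adjusted p up to 0.0325). With siEHMT1, ENO2 ran from -0.61 to -0.37 and was called in none of the 12 fits (adjusted p 0.0979 to 0.844 where given). With siEHMT1, leaving out siNTC 1 or siNTC 2 gave -0.38 or -0.03 for DLL3 and 0.16 or 0.02 for NANS, none called. The estimate for NANS with Dox changed sign around 0, to -9.32e-05 under DESeq2 and to between -0.0135 and 0.0277 when a line was left out.

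The number of genes called depended far more on the setting. With siEHMT1 it was 18, and 109 without a filter, 99 with the replicate block, 188 at the 2-fold cutoff, 65 without siNTC 1, 42 without siNTC 2, 237 without siEHMT1 1 and 120 without siEHMT1 2. Same-numbered siRNA samples did not deviate together (Pearson's r -0.0155 and Spearman's rho 0.0264 across 14241 genes). This rests on a single difference per group, so it cannot decide whether the numbers pair them. With Dox it was 286, and 140 under DESeq2, 1867 for the 16 columns with a replicate block, 53 at the 2-fold cutoff, 472 without WT, 114 without K450R and 97 without K451R. Among lines it was 426, and 239 under DESeq2, 732 without a filter, 3126 for the 16 columns with a replicate block, and 235 (without WT) to 403 with a line left out. The columns are not independent samples. DESeq2 gave no adjusted p for ENO2, DLL3 and SYP with siEHMT1 or for DLL3 with Dox. Markers above the floor in all libraries were 4 in the siRNA samples and 3 in the lines, and 3 in each at a floor of 10 counts. Depth limits what can be said of SYP, NCAM1, CHGA, CHGB and INSM1.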
